A study of Mus musculus with 40 samples.

Results

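Lung tissue of A/J mice graded as squamous carcinoma was compared with A/J tissue graded as moderate to severe dysplasia. The members were chosen from the labels alone, as the A/J samples of these grades that passed quality control, and they were 5 of the 40 samples of the series, of which 25 passed. The carcinoma samples were 1 laser capture microdissected (LCM) sample from a squamous cell carcinoma (SCC) tumor and 1 whole lung section whose worst grade was carcinoma in situ, both from animals given a total of 20 µmol of N-nitrosotris-(2-chloroethyl)urea (NTCU), a carcinogen applied to the skin. The dysplasia samples were 2 LCM samples and 1 whole lung section, from animals given a total of 14 µmol. The 3 A/J samples with normal histology, 2 LCM and 1 whole lung, came from animals given the acetone vehicle and served as background. All were female mice of 1 inbred strain, and the labels give no age at sampling and no animal number, so that an LCM sample and a section may come from 1 animal and every p-value measures only the spread between these samples. Because dose has the same split as grade, and SCC against carcinoma in situ the same split as LCM against whole lung, neither pair can be told apart. The NTCU totals are those of the labels, and the study's methods state other totals. The second normal LCM sample is graded normal in one label and described as mild dysplasia in another.

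Squamous cell carcinoma of the lung is thought to arise from airway basal cells, the keratin 5 and p63 positive stem cells of the tracheal and bronchial epithelium. Chronic carcinogen exposure replaces the secretory and ciliated lining by stratified squamous epithelium, which passes through grades of dysplasia and carcinoma in situ before it crosses the basement membrane. Interferons induce antiviral genes and the MHC molecules that present antigen to T cells, whereas interleukin-6 (IL-6) family cytokines act mainly through STAT3.

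RNA was sequenced as single-end reads, and the values are expected counts per gene. The 8 A/J samples summed to between 8625998 and 16534728 counts, between 49.1% and 74.9% of their reads aligned uniquely, and the median transcript integrity number (TIN, an RNA quality score) ran from 53.7 to 69.6. Within each source the carcinoma sample had the higher TIN: 68.8 in the SCC tumor against 63.6 and 58.5 in LCM dysplasia, and 55.8 in the carcinoma in situ against 53.7 in whole lung dysplasia. Levels below are counts per 1000000 (CPM) scaled by trimmed mean of M values, and a log2 fold change is carcinoma minus dysplasia with the source of the tissue in the model.

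The samples also differed in tissues that do not belong to the airway epithelium. The summed level of 8 adipocyte genes was 137 CPM in the SCC tumor sample and 166 CPM in the carcinoma in situ sample, against 2499.8 and 12623 in LCM dysplasia samples 1 and 2 and 5284 in the whole lung dysplasia sample, and 261 and 5186 in the normal LCM samples and 1718 in the normal whole lung sample. The summed level of 15 T cell and thymocyte genes was 16.4 CPM in the SCC tumor sample and 21.6 CPM in the carcinoma in situ sample, against 1855 and 28.5 in LCM dysplasia samples 1 and 2 and 1332 in the whole lung dysplasia sample. Both carcinoma samples were below all 3 dysplasia samples in both lists, but for T cells LCM dysplasia sample 2 lay close to the carcinoma samples while LCM dysplasia sample 1 was far higher. The 11 markers of the cardiac muscle around pulmonary veins summed to 52.6 CPM in the SCC tumor sample and 21.2 CPM in the carcinoma in situ sample, against 595 and 178 in LCM dysplasia samples 1 and 2 and 1402 in the whole lung dysplasia sample, and 8 cartilage markers to 6.09 CPM in the SCC tumor sample and 9.35 CPM in the carcinoma in situ sample, against 50.3 and 82.5 in LCM dysplasia samples 1 and 2 and 31.2 in the whole lung dysplasia sample. Fat, thymus or lymphoid, cardiac and cartilage markers were therefore lower in both carcinoma samples than in all 3 dysplasia samples, and the part of such neighbouring tissue in the results below was not tested. In bulk samples of this kind fewer cells of a type and less RNA per cell cannot be told apart.

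**Figure D1:**
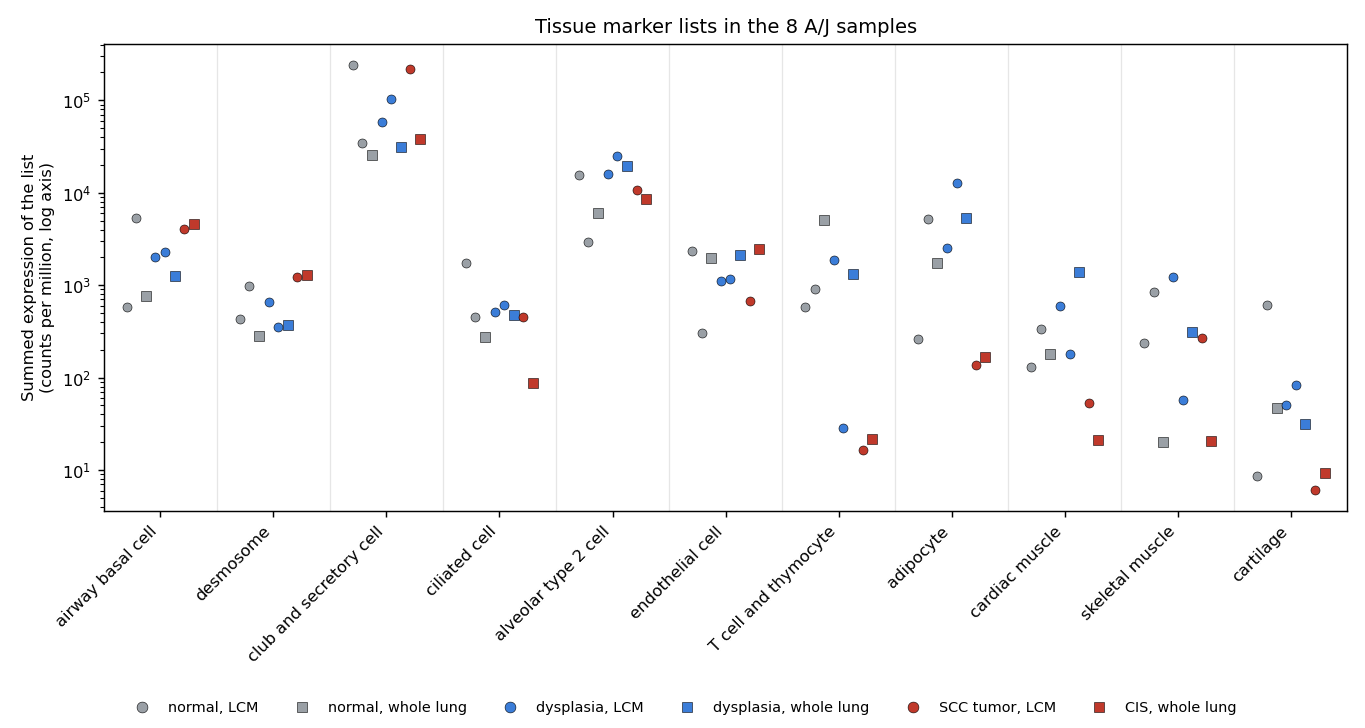
Summed expression of tissue marker lists in the 8 A/J samples, in CPM on a log axis, with circles for LCM and squares for whole lung samples, grey for normal, blue for dysplasia and red for carcinoma. Both carcinoma samples sit below every dysplasia sample for the T cell, adipocyte, cardiac muscle and cartilage lists and above every dysplasia sample for the basal cell and desmosome lists, while the ciliated cell list is low in the carcinoma in situ section only.

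The labelled tissue was checked against its defining genes. In the LCM samples the basal cell genes Krt5 and Trp63 were detected in every sample, with 718 and 55.05 CPM in the SCC tumor. So were the secretoglobin Scgb1a1 (45397 CPM) of club cells and the surfactant gene Sftpc (1464 CPM) of alveolar type 2 cells. The captured SCC material thus held transcripts typical of other epithelium, and which cells they came from was not tested. The whole lung sections held Sftpc and the endothelial gene Pecam1, with 4272 and 294 CPM in the carcinoma in situ section.

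Across 15630 genes, 0 passed an adjusted p of 0.05 between carcinoma and dysplasia in the edgeR fit (0% of the genes tested), the smallest adjusted p being 0.0654. An unadjusted p under 0.05 was reached by 4023 genes, of which 2043 (13.1%) were higher and 1980 (12.7%) lower in carcinoma, and 1117 genes had an adjusted p under 0.1, of which 616 were higher and 501 lower. DESeq2 on the same 8 samples called 2747 genes, 1263 higher (8.08%) and 1484 lower (9.49%), while limma-voom called 9, all higher. On simulated counts with 200 changed genes, DESeq2 called 69 unchanged genes and edgeR 7. The DESeq2 calls below carry this limit. On the same simulated counts edgeR recovered 0 of 67 genes changed 2-fold, 16 of 67 changed 4-fold and 48 of 66 changed 8-fold. DESeq2 recovered 6, 55 and 59 of them. The edgeR count of 0 therefore cannot show an absence of differences, least of all of small ones. A fit of all 25 samples that passed, with strain and RNA quality as covariates, called 181 genes higher (1.16%) and 307 lower (1.96%). The number called thus depended on the tool and on the samples in the fit, and the values of each sample are therefore given first.

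The comparison was next made within each source. With the SCC tumor set against the mean of the 2 LCM dysplasia samples and the carcinoma in situ section against the dysplasia section, 976 genes (6.24%) were at least 2-fold higher in carcinoma in both sources, 1837 (11.8%) at least 2-fold lower in both, and 66 (0.422%) 2-fold apart in opposite directions. Without LCM dysplasia sample 1 these were 894 and 1628 genes, and without LCM dysplasia sample 2 they were 1017 and 1800. Both carcinoma samples lay above all 3 dysplasia samples at 3579 genes (22.9%) and below all 3 at 3306 genes (21.2%). Over the 15630 genes the LCM and the whole lung differences had a Pearson r of 0.764, a description in which all samples share their library preparation and strain. The standard deviation over genes of the difference between the 2 LCM dysplasia samples was 1.12 log2 units. That of the SCC tumor against their mean was 1.11. A mean of 2 samples varies less than 1 sample, so these 2 values are not like measures. That of the carcinoma in situ against dysplasia, 1 sample each, was 1.39.

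**Figure D2:**
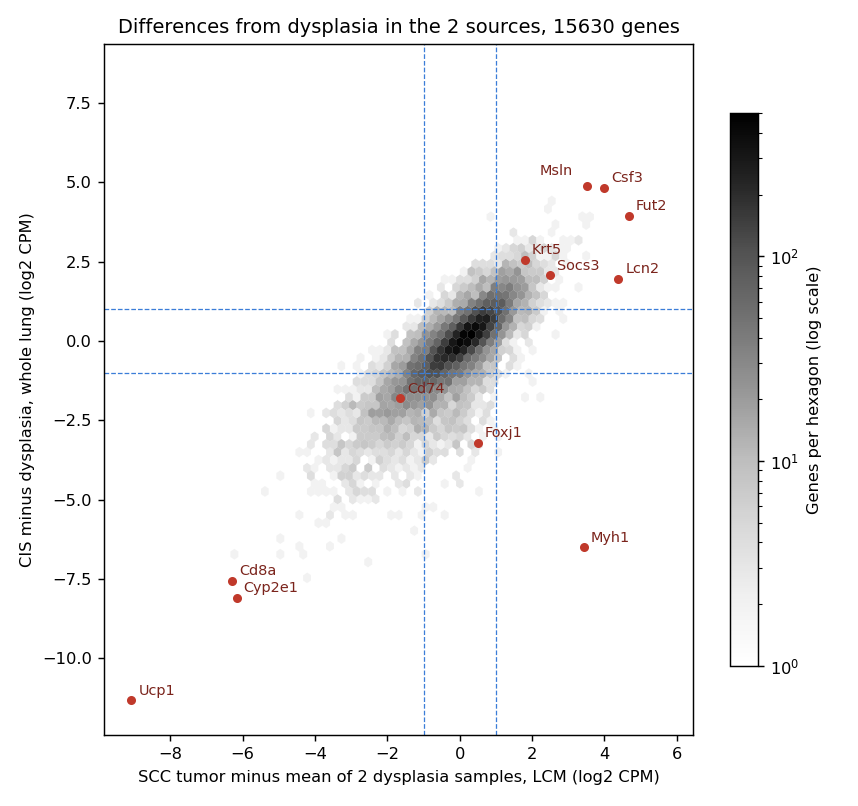
Difference from dysplasia of the SCC tumor in LCM samples (horizontal axis) and of the carcinoma in situ in whole lung sections (vertical axis), both in log2 CPM, with the number of genes per hexagon in grey and dashed lines at a 2-fold difference. Fut2, Msln, Csf3, Lcn2 and Socs3 lie at the upper right, Ucp1, Cyp2e1 and Cd8a at the lower left, and Foxj1 and Myh1 lie off the diagonal, lower than dysplasia in the carcinoma in situ section but not in the SCC tumor.

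The named protein-coding genes with the smallest p, 12 higher and 11 lower among those that differed the same way in both sources, separated both carcinoma samples from every other A/J sample. Fut2, a fucosyltransferase of the secretor blood group (chr7:52903965-52921764, mm9), was 47.03 CPM in the SCC tumor sample and 16.5 CPM in the carcinoma in situ sample, against 1.94 and 1.47 in the LCM dysplasia samples and 0.917 in the whole lung dysplasia sample. Its highest value among the 3 normal samples was 1.18 CPM (log2 fold change 4.54, standard error 0.34, adjusted p = 0.0654). The taurine transporter gene Slc6a6 was 359 CPM in the SCC tumor sample and 388 CPM in the carcinoma in situ sample, against 59.4 and 52.5 in the LCM dysplasia samples and 66.9 in the whole lung dysplasia sample (log2 fold change 2.64, standard error 0.22, adjusted p = 0.0654). For both genes the lower carcinoma value was several times the highest dysplasia value, and the groups did not overlap.

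Trichohyalin (Tchh), a structural protein of hair follicles and keratinised epithelium, was 85.4 CPM in the SCC tumor sample and 46.2 CPM in the carcinoma in situ sample, against 9.43 and 7.73 in the LCM dysplasia samples and 4.95 in the whole lung dysplasia sample (log2 fold change 3.31, standard error 0.32, adjusted p = 0.0703). The sterol enzyme gene Hsd17b7 had 52.9 and 35.8 CPM in carcinoma and 7.68, 9.695 and 7.71 CPM in dysplasia (log2 fold change 2.44, standard error 0.25, adjusted p = 0.0703). The mitotic kinase gene Nek7, whose product also acts in the NLRP3 inflammasome, had 399.6 and 146 CPM and 54.4, 65.8 and 38.5 CPM (log2 fold change 2.396, standard error 0.25, adjusted p = 0.0732). Nek7 was higher in the SCC tumor than in the carcinoma in situ, but both stood above all 6 other A/J samples. The ectonucleotidase gene Entpd3 had 112 and 59.3 CPM and 10.3, 8.59 and 4.13 CPM (log2 fold change 3.78, standard error 0.41, adjusted p = 0.0786). Gdpd2, Cyp51, Lrrc59, Igfbp3, Spns2 and Socs3 completed the 12 genes named in this direction, with log2 fold changes from 1.61 (Spns2) to 4.17 (Gdpd2) and an adjusted p of 0.0786 each.

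Among the genes that were lower, the intermediate filament gene Synm was 5.28 CPM in the SCC tumor sample and 9.57 CPM in the carcinoma in situ sample, against 28.7 and 25.3 in the LCM dysplasia samples and 47.4 in the whole lung dysplasia sample (log2 fold change -2.302, standard error 0.25, adjusted p = 0.0786). The interferon-inducible genes Gbp10 and Gbp6 had 0.743 and 0.653 CPM and 1.19 and 0.8702 CPM in carcinoma, against 11.1, 8.47 and 12.2 CPM and 10.6, 11.7 and 11.7 CPM in dysplasia, although these near-identical guanylate binding protein genes may have exchanged reads. AW112010, an interferon-inducible transcript of immune cells, had 23.1 and 15.99 CPM against 83.9, 115 and 65.1 CPM (log2 fold change -2.08, standard error 0.23, adjusted p = 0.0786), and Gimap4, a GTPase gene of lymphocytes, 9.66 and 15.99 CPM against 74.6, 52.4 and 65.8 CPM (log2 fold change -2.46, standard error 0.32, adjusted p = 0.0786).

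Cyp2e1, Aoc3 and Fndc5 are also expressed in fat or muscle. Adipocyte and cardiac muscle markers were lower in both carcinoma samples, whereas the 11 skeletal muscle markers were lower in the carcinoma in situ section (a median of -5.59 log2 units from dysplasia) and not in the SCC tumor (1.203, with its summed level between those of the 2 LCM dysplasia samples). Cyp2e1, a cytochrome P450 that oxidises small molecules, was 0.5201 CPM in the SCC tumor sample and 0.109 CPM in the carcinoma in situ sample, against 47.4 and 50.7 in the LCM dysplasia samples and 74.04 in the whole lung dysplasia sample (log2 fold change -7.36, standard error 0.91, adjusted p = 0.0786). Aoc3, an amine oxidase of adipocytes and smooth muscle, had 1.93 and 1.52 CPM against 26.9, 48.5 and 47.4 CPM, and the muscle gene Fndc5 0.223 and 0.109 CPM against 5.06, 6.504 and 14.9 CPM. The heme synthesis gene Uros had 4.53 and 3.15 CPM against 21.2, 39.6 and 20.2 CPM. Zbtb20 and Lrrc17 were also among them, with log2 fold changes of -1.89 and -4.05 and an adjusted p of 0.0786 each.

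**Figure D3:**
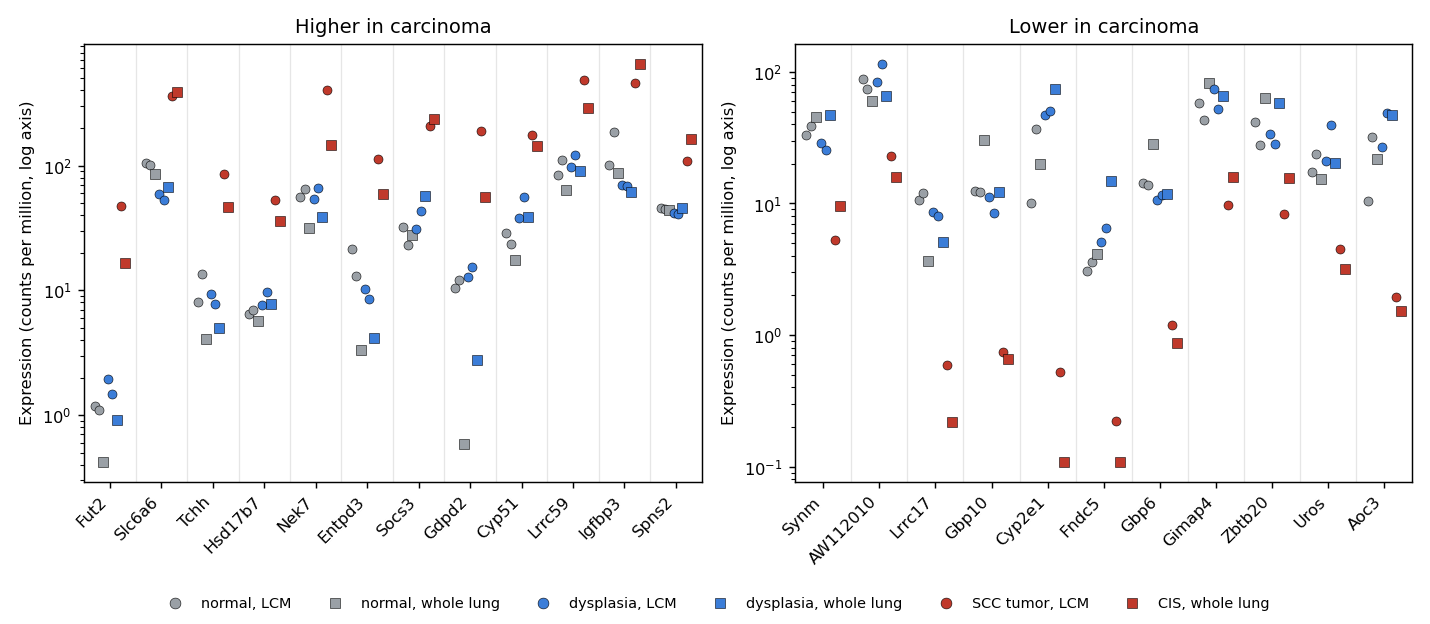
Expression of the genes with the smallest p in each direction (12 higher and 11 lower in carcinoma) in the 8 A/J samples, in CPM on a log axis, with symbols as in the plot of tissue markers. In each column both red carcinoma symbols lie on the same side of all blue dysplasia symbols, for example at 47.03 and 16.5 CPM above at most 1.94 CPM for Fut2.

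Airway basal cell genes were higher in carcinoma than in dysplasia in most members. Their summed level was 4067 CPM in the SCC tumor sample and 4553 CPM in the carcinoma in situ sample. It was 5350 CPM in the second normal LCM sample, 574 CPM in the first and 765 CPM in the normal whole lung sample. Of 18 basal cell genes tested, 8 were at least 2-fold higher in both sources and 0 were 2-fold lower, 13 were above all dysplasia samples in both carcinoma samples, and the median log2 fold change was 1.66, beside -0.02 over all genes. Among all genes 6.24% were 2-fold higher in both sources and 22.9% were above all dysplasia samples. Keratin 5 (Krt5) was 718 CPM in the SCC tumor sample and 704 CPM in the carcinoma in situ sample, against 315 and 135 in the LCM dysplasia samples and 119 in the whole lung dysplasia sample. It was higher than all of these in the second normal LCM sample, at 1211 CPM, and the difference from dysplasia was within the error (log2 fold change 2.21, standard error 1.25, adjusted p = 0.303). Trp63, which encodes the basal cell transcription factor p63, had 55.05 and 41.2 CPM in carcinoma and 38.1, 28.8 and 12.6 CPM in dysplasia (log2 fold change 1.25, standard error 1.08, adjusted p = 0.489). It too was highest in the second normal LCM sample, at 80.4 CPM.

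Genes of attachment to the basement membrane were steadier among the dysplasia samples. Itgb4, the hemidesmosome integrin, had 125 and 152 CPM against 39.3, 37.8 and 32.5 CPM (log2 fold change 2.11, standard error 0.67, adjusted p = 0.128), whereas Lama3, a laminin 332 chain gene, had 19.3 and 31.1 CPM against 22.2, 15.3 and 23.7 CPM (log2 fold change 0.24, standard error 0.28, adjusted p = 0.616). For Itgb4 both carcinoma values were above all dysplasia values, while for Lama3 the groups overlapped.

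Squamous differentiation genes were less uniform. Their summed level was 5262 CPM in the SCC tumor sample and 5223 CPM in the carcinoma in situ sample. It was 6683 CPM in the second normal LCM sample, 1193 CPM in the first and 223 CPM in the normal whole lung sample. Of 27 tested, 17 were 2-fold higher in both sources and 3 were 2-fold lower, beside 6.24% and 11.8% of all genes, with a median of 1.81. Without LCM dysplasia sample 1 the counts were 18 and 0, and without LCM dysplasia sample 2 they were 8 and 3, so the number rested on the second of these samples, in which the list was low. The stress keratin Krt6a was 502 CPM in the SCC tumor sample and 598 CPM in the carcinoma in situ sample, against 199 and 23.1 in the LCM dysplasia samples and 44.4 in the whole lung dysplasia sample (log2 fold change 3.43, standard error 2.22, adjusted p = 0.361). The serpin gene Serpinb5 had 194 and 94.6 CPM against 60.9, 32.1 and 16.9 CPM, the annexin gene Anxa8 495 and 356 CPM against 117, 174 and 46.2 CPM, and involucrin (Ivl), a cornified envelope precursor, 11.5 and 15.4 CPM against 2.56, 2.21 and 1.65 CPM. None of these passed the edgeR test, though DESeq2 called Anxa8 and Ivl (adjusted p = 0.0276 and 0.046), and for each the carcinoma values were above all dysplasia values.

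The late cornification gene loricrin (Lor) had 0.817 and 2.39 CPM in carcinoma and 23.5, 0.368 and 4.495 CPM in dysplasia, the transglutaminase gene Tgm3 0.669 and 0 CPM against 30.1, 0.859 and 3.85 CPM, and Lgals7 9.51 and 10.9 CPM against 127, 7.73 and 29.4 CPM. These 3 genes were high in LCM dysplasia sample 1 and low in LCM dysplasia sample 2, and the carcinoma samples lay among the dysplasia values for Lor and Lgals7. Sprr2a3, a small proline-rich protein gene, had 231 and 174 CPM against 16.9, 27.98 and 2.57 CPM (log2 fold change 4.85, standard error 0.87, adjusted p = 0.0786), and its near-identical neighbour Sprr2a1 may share its reads. Of 10 desmosome genes, which join keratinocytes to each other, 7 were 2-fold higher in both sources and 0 lower (6 without LCM dysplasia sample 1, 4 without LCM dysplasia sample 2). The share of all genes 2-fold higher was 6.24%. Desmoglein 3 (Dsg3) had 71.7 and 38.6 CPM against 17.1, 2.94 and 3.49 CPM, and Perp 478 and 420.4 CPM against 227, 113 and 86.8 CPM, with adjusted p-values of 0.265 and 0.159.

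The markers of other epithelia did not move together. Of 16 ciliated cell genes 0 were 2-fold apart in the same direction in both sources, beside 6.24% of all genes higher and 11.8% lower. In both carcinoma samples 7 of the 16 were below all dysplasia samples, beside 21.2% of all genes. In the carcinoma in situ section 14 were at least 4-fold below the dysplasia section, beside 8.7% of all genes. Foxj1, the regulator of motile cilia, was 64.2 CPM in the SCC tumor sample and 9.14 CPM in the carcinoma in situ sample, against 47.6 and 43.4 in the LCM dysplasia samples and 85.8 in the whole lung dysplasia sample. The median of the list was -0.13 log2 units in LCM samples and -3.03 in whole lung sections, so that the ciliated genes were low in the carcinoma in situ section and close to dysplasia in the SCC tumor. Among 15 club and secretory cell genes, Scgb3a1 had 2636 and 365 CPM against 347, 1270.2 and 65.7 CPM and the antimicrobial protein gene Bpifa1 145020.0 and 24205 CPM against 9736, 37602 and 2376 CPM, while Scgb1a1 had 45397 and 5360.0 CPM against 33007, 29349.6 and 21631 CPM. The mesothelin gene Msln, which is also expressed by carcinomas, was 4039.6 CPM in the SCC tumor sample and 2078 CPM in the carcinoma in situ sample, against 215 and 576 in the LCM dysplasia samples and 69.3 in the whole lung dysplasia sample (log2 fold change 4.33, standard error 1.303, adjusted p = 0.117), while the mesothelial gene Upk3b had 1.34 and 5.33 CPM against 7.43, 0 and 8.44 CPM.

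Genes of the IL-6 and STAT3 response were higher in both carcinoma samples. Of 16 tested, 7 were 2-fold higher in both sources and 0 lower, 9 reached an unadjusted p under 0.05 in the higher direction and 1 in the lower, and the median was 1.21. The count was 7 without LCM dysplasia sample 1 and 8 without LCM dysplasia sample 2. Over all genes 6.24% were 2-fold higher in both sources. DESeq2 called 8 of the 16 higher and 1 lower, beside 8.08% and 9.49% of all genes, and the fit of 25 samples called 3 higher, beside 1.16%.

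Among the downstream products, Socs3, the feedback inhibitor of these receptors (chr11:117827393-117831361, mm9), was 206 CPM in the SCC tumor sample and 238 CPM in the carcinoma in situ sample, against 30.9 and 42.95 in the LCM dysplasia samples and 56.6 in the whole lung dysplasia sample. The normal samples held 32.2, 23.2 and 27.7 CPM, and the groups did not overlap (log2 fold change 2.32, standard error 0.27, adjusted p = 0.0786). Lipocalin 2 (Lcn2), an acute phase protein that binds bacterial siderophores, was 4189.9 CPM in the SCC tumor sample and 799 CPM in the carcinoma in situ sample, against 206 and 195 in the LCM dysplasia samples and 204 in the whole lung dysplasia sample (log2 fold change 3.36, standard error 0.59, adjusted p = 0.0786). The SCC tumor was highest, and the carcinoma in situ section was also above all 6 other samples. Saa3, a serum amyloid, had 57.1 and 108 CPM against 4.18, 8.1 and 11.6 CPM (log2 fold change 3.28, standard error 0.67, adjusted p = 0.0799), and the transcription factor gene Nfil3 54.2 and 39.6 CPM against 8.304, 14.6 and 10 CPM (log2 fold change 2.18, standard error 0.39, adjusted p = 0.0786). The zinc transporter gene Slc39a14 had 61.4 and 68.4 CPM against 16.1, 24.8 and 22.2 CPM, and Bcl3, a nuclear partner of NF-kB, 41.8 and 62.9 CPM against 11.9, 18.4 and 24.8 CPM, with adjusted p-values of 0.0786 and 0.0795.

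Stat3 itself was 219 CPM in the SCC tumor sample and 209.8 CPM in the carcinoma in situ sample, against 102 and 107 in the LCM dysplasia samples and 128 in the whole lung dysplasia sample (log2 fold change 0.92, standard error 0.204, adjusted p = 0.0855). Of the receptors, Osmr had 97.7 and 99.97 CPM against 50.5, 66.8 and 57.4 CPM and the shared chain gene Il6st 109.6 and 104 CPM against 92.7, 112 and 113 CPM (adjusted p = 0.9703), whereas Lifr was lower, with 16.9 and 32.2 CPM against 62.8, 35.5 and 61.9 CPM (log2 fold change -1.302, standard error 0.32, adjusted p = 0.0938). Of the ligands, Lif had 17.5 and 39.5 CPM against 7.18, 25.4 and 8.53 CPM, and the SCC tumor lay within the range of the dysplasia samples. The granulocyte growth factor gene Csf3 was 22.1 CPM in the SCC tumor sample and 15.01 CPM in the carcinoma in situ sample, against 0.936 and 1.59 in the LCM dysplasia samples and 0.367 in the whole lung dysplasia sample (log2 fold change 4.77, standard error 1.0005, adjusted p = 0.0828), and the neutrophil chemokine gene Cxcl1 had 16.6 and 20.99 CPM against 3.31, 8.59 and 2.66 CPM. Of 13 genes of the neutrophil list 4 were 2-fold higher in both sources, beside 6.24% of all genes, and 0 lower. Lactoferrin (Ltf), a neutrophil granule protein that airway secretory cells also make, was 46342 CPM in the SCC tumor sample and 15083 CPM in the carcinoma in situ sample, against 3190.0 and 4242 in the LCM dysplasia samples and 1011 in the whole lung dysplasia sample (log2 fold change 4.01, standard error 2.104, adjusted p = 0.273), whereas the calprotectin genes S100a8 and S100a9 did not separate the groups, with 19.4 and 76.1 CPM against 64.99, 14.1 and 50.9 CPM and 36.2 and 133 CPM against 111, 21.6 and 101 CPM.

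The promoter of Socs3 is shown because Socs3 had the smallest p of this list and because the family acts through STAT sites. In the 250 bases before its RefSeq start (chr11:117969367-117969616, minus strand, GRCm38.p6) the capitals mark the single match to TTCNNNGAA, the gamma-activated sequence bound by STAT dimers, searched on both strands.
Socs3: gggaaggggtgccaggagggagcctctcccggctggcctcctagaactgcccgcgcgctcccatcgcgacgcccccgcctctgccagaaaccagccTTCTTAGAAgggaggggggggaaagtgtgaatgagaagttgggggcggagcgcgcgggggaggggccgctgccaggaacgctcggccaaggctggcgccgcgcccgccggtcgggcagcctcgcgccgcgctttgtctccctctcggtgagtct
The motif was present in 7.18% of 27025 mouse promoters of the same length and in 2 of the 13 list members with a promoter entry, Socs3 and Steap4. Steap4 was not higher in carcinoma (33.9 and 20.6 CPM against 32.6, 82.8 and 33.4 CPM). A match describes the letters only and is not a measured binding site.

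Antigen presentation and interferon genes were lower in both carcinoma samples. All 7 MHC class II genes tested were below all dysplasia samples in both carcinoma samples, 6 of them at least 2-fold in both sources, and the median was -1.77. The shares of all genes were 21.2% and 11.8%. The count of 6 was the same without either LCM dysplasia sample. Cd74, the invariant chain, was 104 CPM in the SCC tumor sample and 211 CPM in the carcinoma in situ sample, against 432 and 246 in the LCM dysplasia samples and 736 in the whole lung dysplasia sample (log2 fold change -1.75, standard error 0.33, adjusted p = 0.0786). H2-Ab1, an MHC class II beta chain, was 37.6 CPM in the SCC tumor sample and 63.7 CPM in the carcinoma in situ sample, against 156 and 111 in the LCM dysplasia samples and 231 in the whole lung dysplasia sample (log2 fold change -1.82, standard error 0.26, adjusted p = 0.0786). Their transactivator gene Ciita had 0.966 and 2.94 CPM against 13.1, 6.01 and 9.63 CPM (log2 fold change -2.56, standard error 0.63, adjusted p = 0.0938). The normal samples reached at least 405 CPM of Cd74, so the carcinoma samples were the lowest of the 8 A/J samples.

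MHC class II genes are also expressed by B cells and macrophages, and the B cell list was lower as well, with 9 of 11 genes 2-fold lower in both sources, beside 11.8% of all genes. Cd79a, a B cell receptor chain, had 1.93 and 3.48 CPM against 50.9, 10.1 and 40 CPM. The macrophage genes C1qa, C1qb and C1qc were near the dysplasia levels, with log2 fold changes of 0.21, -0.01 and 0.34, while Msr1 had 24.7 and 46.1 CPM against 8.803, 7.36 and 7.98 CPM (log2 fold change 2.11, standard error 0.45, adjusted p = 0.0838) and arginase 1 (Arg1) 222 and 95.3 CPM against 39.1, 5.64 and 10.3 CPM (adjusted p = 0.162). The part of B cells in the MHC class II values was not tested. The MHC class I list was less far apart, with 3 of 11 genes 2-fold lower in both sources (11.8% of all genes) and a median of -0.64. Beta-2 microglobulin (B2m) was 416 CPM in the SCC tumor sample and 482 CPM in the carcinoma in situ sample, against 1096 and 1041 in the LCM dysplasia samples and 974 in the whole lung dysplasia sample (log2 fold change -1.23, standard error 0.25, adjusted p = 0.0793), whereas the class I heavy chain gene H2-D1 had 499.8 and 838 CPM against 676, 809 and 904 CPM (log2 fold change -0.37, standard error 0.24, adjusted p = 0.358).

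Of 19 interferon-stimulated genes, 9 were 2-fold lower in both sources and 0 higher, 14 were below all dysplasia samples (21.2% of all genes), and the median was -1.08. The count was 9 without LCM dysplasia sample 1 and 7 without LCM dysplasia sample 2, beside 11.8% of all genes 2-fold lower in both sources, and DESeq2 called 10 of the 19 lower, beside 9.49% of all genes. Gbp3, a guanylate binding protein, had 5.13 and 6.31 CPM against 17.5, 13.2 and 17.6 CPM (log2 fold change -1.57, standard error 0.29, adjusted p = 0.0786). The membrane tether gene Bst2 had 20.1 and 36.2 CPM against 51.3, 50.7 and 92.3 CPM (log2 fold change -1.35, standard error 0.204, adjusted p = 0.0786), and the ubiquitin-like modifier gene Isg15 6.17 and 6.09 CPM against 12.9, 19.8 and 19.5 CPM (log2 fold change -1.54, standard error 0.45, adjusted p = 0.113). The chemokine gene Cxcl9, which draws T cells, had 0.0743 and 0.109 CPM against 3.31, 6.504 and 3.58 CPM, both carcinoma values being under the level of 3 counts in those libraries. Ifit3 and Mx1 were exceptions, with 16.1 and 46.7 CPM against 19.5, 30.8 and 38.99 CPM and 31.9 and 22.3 CPM against 20.4, 50.2 and 10.6 CPM.

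The promoters of 3 genes are printed to show the element that many of these genes share. The capitals mark matches on either strand to GAAA, 2 bases of any kind and GAAA, a core of the interferon-stimulated response element, in the 250 bases before the RefSeq start (GRCm38.p6): Isg15 at chr4:156200819-156201068 on the minus strand, Gbp3 at chr3:142559794-142560043 on the plus strand, and Bst2 at chr8:71537473-71537722 on the minus strand.
Isg15: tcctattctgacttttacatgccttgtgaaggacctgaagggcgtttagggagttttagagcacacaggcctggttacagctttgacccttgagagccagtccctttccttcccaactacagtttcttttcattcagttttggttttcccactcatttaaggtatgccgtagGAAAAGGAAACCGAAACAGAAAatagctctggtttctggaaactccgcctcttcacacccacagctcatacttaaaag
Gbp3: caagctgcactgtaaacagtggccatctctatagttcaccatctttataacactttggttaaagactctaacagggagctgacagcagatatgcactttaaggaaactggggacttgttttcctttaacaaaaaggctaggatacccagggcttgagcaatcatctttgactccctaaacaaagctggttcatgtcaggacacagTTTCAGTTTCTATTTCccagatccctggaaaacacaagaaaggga
Bst2: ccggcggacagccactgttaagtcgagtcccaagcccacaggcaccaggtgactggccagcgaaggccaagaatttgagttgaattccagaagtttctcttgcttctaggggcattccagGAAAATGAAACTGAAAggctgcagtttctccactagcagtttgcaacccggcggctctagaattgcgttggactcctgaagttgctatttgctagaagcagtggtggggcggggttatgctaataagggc
The run in Isg15 holds 3 overlapping matches, and those in Gbp3 and Bst2 hold 2 each, in Gbp3 on the opposite strand. Of the 14 list members with a promoter entry 9 (64.3%) held a match, against 821 of 27025 promoters (3.04%). The 9 were Ifit1, Isg15, Ifit3, Oas1a, Rsad2, Cxcl10, Gbp2, Gbp3 and Bst2, and they included Ifit3, which was not lower in the carcinoma in situ section.

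**Figure D4:**
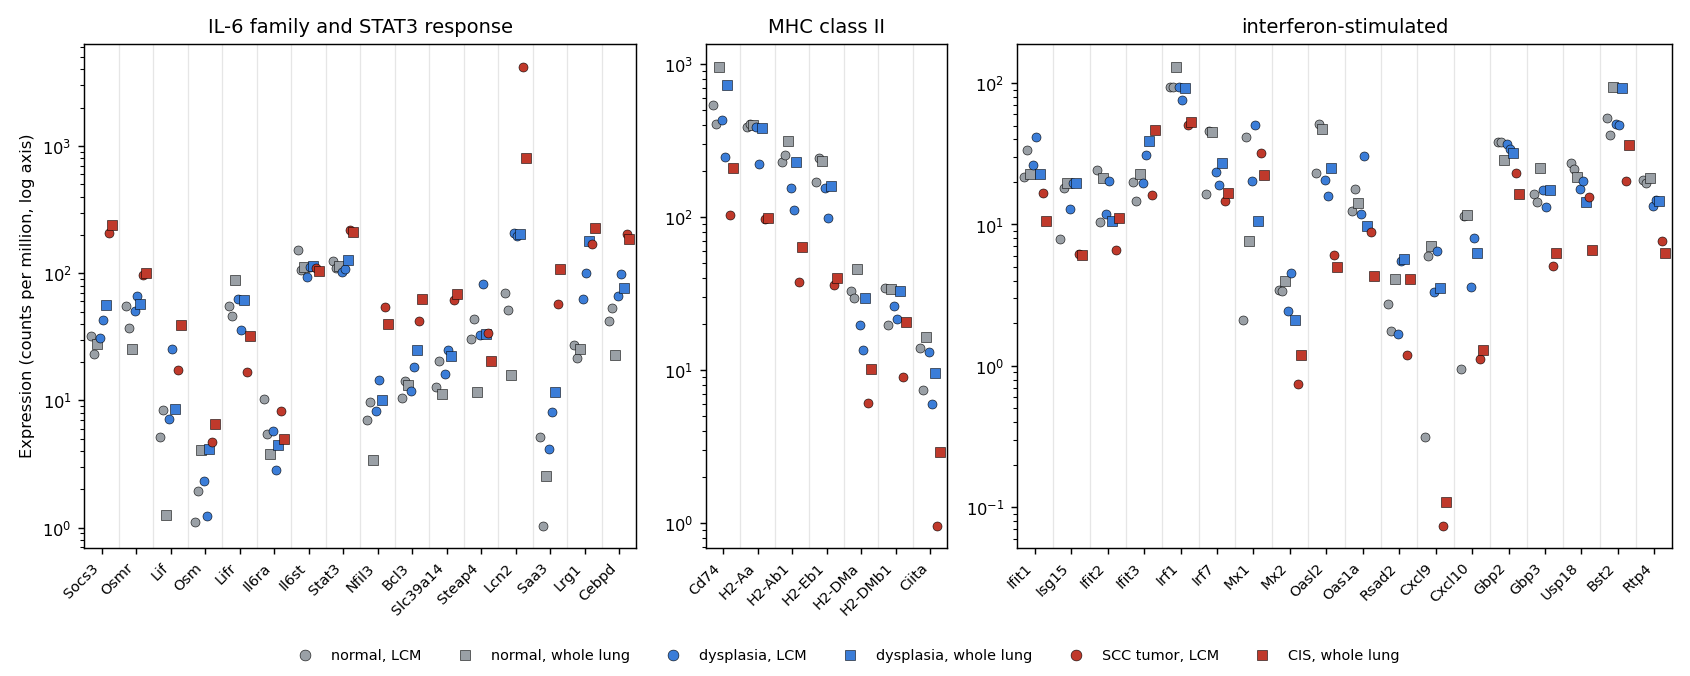
Expression of the IL-6 and STAT3 response, MHC class II and interferon-stimulated genes in the 8 A/J samples, in CPM on a log axis, with circles for LCM, squares for whole lung, grey for normal, blue for dysplasia and red for carcinoma. For all 7 MHC class II genes both carcinoma symbols are below all dysplasia symbols, while for Socs3, Nfil3, Lcn2 and Saa3 they are above.

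T cell genes were low in both carcinoma samples and in 1 of the dysplasia samples. Of 15 tested, 14 were 2-fold lower in both sources (11.8% of all genes), but without LCM dysplasia sample 1 the count was 6. Cd8a was 0.0743 CPM in the SCC tumor sample and 0.8702 CPM in the carcinoma in situ sample, against 251 and 1.23 in the LCM dysplasia samples and 194 in the whole lung dysplasia sample. The immature thymocyte gene Dntt, the terminal transferase of antigen receptor rearrangement, was likewise high in LCM dysplasia sample 1 and the whole lung dysplasia section, with 0.0743 and 0 CPM against 219, 0.123 and 142 CPM. In the normal whole lung section Cd8a and Dntt were 824 and 431 CPM. The checkpoint ligand gene Cd274, an interferon target, had 3.57 and 9.14 CPM against 18.8, 12.2 and 22.3 CPM (log2 fold change -1.77, standard error 0.47, adjusted p = 0.101), and the regulatory T cell gene Foxp3 6.32 and 10.4 CPM against 11.9, 6.504 and 9.82 CPM (adjusted p = 0.664).

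Growth factor genes of the epithelium were next examined by role. Of 9 genes of the EGF receptor family, 4 were 2-fold higher in both sources (6.24% of all genes) and 0 lower, with a median of 1.35. Among the receptors, Erbb3 had 110.0 and 110.3 CPM against 37.1, 35.6 and 30.2 CPM (log2 fold change 1.804, standard error 0.33, adjusted p = 0.0786), and Egfr 46.3 and 49.5 CPM against 34.5, 28.2 and 25.8 CPM (adjusted p = 0.314). Among the ligands, epiregulin (Ereg) had 52.97 and 69.4 CPM against 13.99, 19.4 and 9.36 CPM and Tgfa 17.98 and 15.99 CPM against 9.68, 7.49 and 3.49 CPM, with adjusted p-values of 0.263 and 0.112. Betacellulin (Btc) was not higher (-0.04 log2, adjusted p = 0.974).

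Pthlh, which encodes the parathyroid hormone related protein that many squamous carcinomas release, was 25.04 CPM in the SCC tumor sample and 19.8 CPM in the carcinoma in situ sample, against 2.62 and 2.45 in the LCM dysplasia samples and 2.11 in the whole lung dysplasia sample (log2 fold change 3.36, standard error 0.56, adjusted p = 0.0786). Follistatin (Fst), which binds activin, was 69.98 CPM in the SCC tumor sample and 122 CPM in the carcinoma in situ sample, against 12.6 and 14.2 in the LCM dysplasia samples and 16.7 in the whole lung dysplasia sample (log2 fold change 2.69, standard error 0.53, adjusted p = 0.0786). For both genes the lower carcinoma value exceeded all 6 other A/J samples. Of the activin receptors, Acvr1b had 26 and 22.8 CPM against 11.5, 10.2 and 10.4 CPM (log2 fold change 1.22, standard error 0.28, adjusted p = 0.0861) and Acvr2a 31.4 and 41.99 CPM against 24.4, 23.2 and 26.5 CPM. In the Notch list 1 of 12 genes was 2-fold higher in both sources, close to the share of all genes (6.24%). It was the ligand gene Jag2, with 48.2 and 55.7 CPM against 16.6, 15.7 and 20.6 CPM (log2 fold change 1.55, standard error 0.29, adjusted p = 0.0786), while the receptor gene Notch1 had 36.6 and 99.5 CPM against 54.4, 27 and 75.9 CPM.

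Immediate early genes, which respond within minutes to growth factors, were higher for 6 of 20 members at least 2-fold in both sources, with 11 of 20 at an unadjusted p under 0.05. The shares of all genes in the higher direction were 6.24% and 13.1%. Junb had 186 and 232 CPM against 73.8, 97.2 and 74.9 CPM (log2 fold change 1.39, standard error 0.27, adjusted p = 0.0786), Jund 128 and 303 CPM against 66.3, 66.5 and 147 CPM (log2 fold change 1.0005, standard error 0.19, adjusted p = 0.0786), and Myc 44.6 and 71.4 CPM against 22.98, 14.8 and 19.1 CPM (adjusted p = 0.148). Fos did not separate the groups, with 58.8 and 106 CPM against 67.2, 28.8 and 50.7 CPM. Among endoplasmic reticulum genes Xbp1, a regulator of secretory cells, was 1014 CPM in the SCC tumor sample and 399 CPM in the carcinoma in situ sample, against 193 and 234 in the LCM dysplasia samples and 139 in the whole lung dysplasia sample (log2 fold change 1.94, standard error 0.27, adjusted p = 0.0786), and Ddit3, the pro-apoptotic factor of this stress response, had 7.43 and 11.3 CPM against 22.04, 26.5 and 27.4 CPM (log2 fold change -1.53, standard error 0.25, adjusted p = 0.0786). The chaperone gene Hspa5 had a log2 fold change of 0.25 (adjusted p = 0.537).

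Among genes of known weight in human squamous lung cancer, Sox2 had 82.3 and 56.2 CPM against 26.9, 50.3 and 14.7 CPM (log2 fold change 1.599, standard error 0.46, adjusted p = 0.112) and Pik3ca 57.8 and 75.9 CPM against 79.98, 57.9 and 93.8 CPM (log2 fold change -0.298, standard error 0.31, adjusted p = 0.564). The NRF2 targets had a median of 0.44, with 5 of 24 genes 2-fold higher in both sources (2 without LCM dysplasia sample 1, 9 without LCM dysplasia sample 2), beside 6.24% of all genes. Gclc, which limits glutathione synthesis, had 592 and 342 CPM against 179, 292 and 129.7 CPM (log2 fold change 1.41, standard error 0.32, adjusted p = 0.0861), and the glutathione peroxidase gene Gpx2 1289.6 and 286 CPM against 157, 478 and 60.6 CPM (adjusted p = 0.112), while the classical target Nqo1 had 33.5 and 14.2 CPM against 33.2, 74.5 and 15.1 CPM (adjusted p = 0.563). The tumor suppressor gene Cdkn2a had 81.3 and 67.5 CPM against 13.1, 15.1 and 11.3 CPM (log2 fold change 2.64, standard error 0.88, adjusted p = 0.135). Of 20 p53 targets 4 were 2-fold higher in both sources (6.24% of all genes), among them the pro-apoptotic gene Pmaip1 with 65.8 and 88.5 CPM against 24.8, 22.1 and 13.1 CPM (adjusted p = 0.106), and Cdkn1a had 291 and 453 CPM against 203, 199 and 318 CPM.

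Proliferation genes did not separate carcinoma from dysplasia. Of 34 cell cycle genes 0 reached an unadjusted p under 0.05 in the edgeR fit, beside 13.1% of all genes higher and 12.7% lower. The median was -0.33 in this fit, with differences of 0.29 in LCM and -0.32 in whole lung. The summed level was 1741 and 570 CPM in LCM dysplasia samples 1 and 2. With dysplasia samples this far apart, the count of 0 cannot show an absence of differences. Mki67 was 30.7 CPM in the SCC tumor sample and 80.9 CPM in the carcinoma in situ sample, against 180.1 and 7.12 in the LCM dysplasia samples and 154 in the whole lung dysplasia sample. LCM dysplasia sample 1, with the high T cell and thymocyte genes, was the highest of these 5 samples for Mki67, and LCM dysplasia sample 2, with few such genes, the lowest. The part of lymphoid tissue in these values was not tested.

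Genes of the matrix and of mesenchyme were mixed. The metalloproteinase inhibitor gene Timp1 had 168 and 178 CPM against 14.6, 29.4 and 35.9 CPM (log2 fold change 2.71, standard error 0.61, adjusted p = 0.0861), and the urokinase receptor gene Plaur 63.1 and 127 CPM against 18.1, 34.7 and 32.2 CPM (log2 fold change 1.64, standard error 0.36, adjusted p = 0.0855). The collagen crosslinking gene Lox had 126 and 183 CPM against 35.7, 22.1 and 66.2 CPM (log2 fold change 1.87, standard error 0.401, adjusted p = 0.0845). The fibrillar collagen genes Col1a1 and Col3a1 did not separate the groups, with log2 fold changes of 0.29 and -0.38. Another, Col5a2, was above all dysplasia samples in both carcinoma samples (109.7 and 117.8 CPM against 60.2, 54.98 and 75.8 CPM, edgeR adjusted p = 0.223). The fibroblast proteoglycan gene Dcn was lower (85.9 and 45.5 CPM against 381, 366 and 222 CPM, log2 fold change -2.12, standard error 0.49, adjusted p = 0.0877). Of the genes of epithelial to mesenchymal transition, Epcam had 375 and 272 CPM against 92.7, 161 and 69.4 CPM (log2 fold change 1.86, standard error 0.46, adjusted p = 0.09596), Zeb1 13 and 27.2 CPM against 45.8, 31.4 and 53.8 CPM (log2 fold change -1.37, standard error 0.35, adjusted p = 0.0976), and the mesenchymal regulator gene Twist1 had 0 counts in both carcinoma samples and 2.56, 5.89 and 5.14 CPM in dysplasia.

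Among metabolic genes, the glucose transporter gene Slc2a1 was 109.8 CPM in the SCC tumor sample and 89.2 CPM in the carcinoma in situ sample, against 40.3 and 40.4 in the LCM dysplasia samples and 27.5 in the whole lung dysplasia sample (log2 fold change 1.61, standard error 0.25, adjusted p = 0.0786), and hexokinase 1 (Hk1) had 90.3 and 85.6 CPM against 33.8, 46.3 and 45.7 CPM (log2 fold change 1.07, standard error 0.25, adjusted p = 0.0894). The glycolysis list as a whole had a median of -0.35, and Hk2, the isoform of muscle and fat, had 38.3 and 44.4 CPM against 51.7, 190.2 and 106 CPM. Of 58 respiratory chain genes 44 were below all dysplasia samples (21.2% of all genes), and 23 were 2-fold lower in both sources (11.8% of all genes). This count was 31 without LCM dysplasia sample 1 and 4 without LCM dysplasia sample 2, the library with the highest adipocyte sum, and the summed level of the list was 8056 CPM in the SCC tumor sample and 5874 CPM in the carcinoma in situ sample, against 9223 and 26259 in LCM dysplasia samples 1 and 2 and 11750.4 in the whole lung dysplasia sample. The furthest members were Cox8b and Cox7a1, subunit isoforms of muscle and brown fat, with 6.39 and 0 CPM against 186, 938 and 358 CPM and 1.93 and 1.09 CPM against 65.5, 388 and 140.1 CPM. Of 72 cytosolic ribosomal protein genes 45 were above all dysplasia samples and 3 were 2-fold higher in both sources, beside 22.9% and 6.24% of all genes, with a median of 0.49. The 2-fold count did not exceed its share of all genes. Many ribosomal protein genes have processed pseudogenes, so their counts may be shared.

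**Figure D5:**
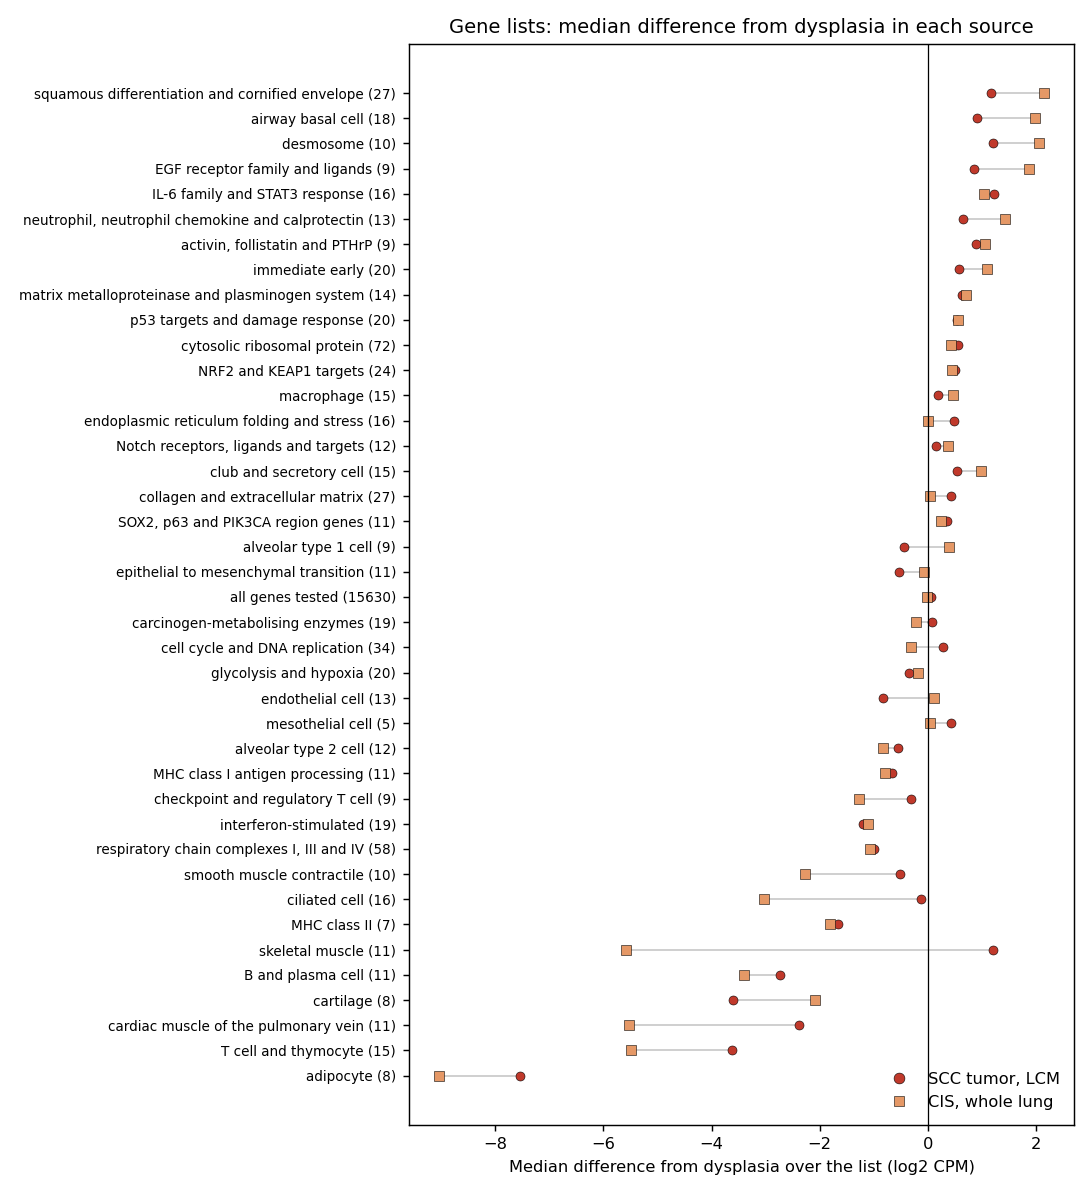
Median difference from dysplasia over each gene list, in log2 CPM, for the SCC tumor in LCM samples (circles) and the carcinoma in situ in whole lung sections (squares), with the number of genes tested in parentheses. The basal cell, squamous and desmosome lists are at the top, adipocyte, T cell and cardiac lists at the bottom, and the skeletal muscle list is the widest apart between the sources.

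The SCC tumor was also compared with dysplasia among the 5 LCM samples alone, where 1 carcinoma sample is assumed to vary like the other groups. On simulated counts the edgeR fit of these samples recovered 1 of 66 genes changed 8-fold, so it cannot show an absence of differences. In this edgeR fit 0 genes passed an adjusted p of 0.05 (smallest 0.634), 1098 had an unadjusted p under 0.05, and DESeq2 called 227, 54 higher and 173 lower. In the whole lung sections, with 1 sample against 1 and no test, the carcinoma in situ was at least 4-fold above dysplasia at 401 genes (2.57%) and at least 4-fold below at 1360 genes (8.7%).

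The largest whole lung differences upward included 3 small proline-rich protein genes of keratinised epithelium. Sprr2a1 was 0 in the dysplasia section and 53.8 CPM in the carcinoma in situ, at least 196-fold higher against a floor of 3 counts in that library. Sprr2a3 was 2.57 and 174 CPM, Sprr1a 4.86 and 126, BC100530 0.183 and 15.2, Msln 69.3 and 2078, and Csf3 0.367 and 15.01. Downward the largest differences were in genes of fat and heart. The thermogenic gene Ucp1 was 1809 CPM in the dysplasia section and 0.544 in the carcinoma in situ, and 742, 4480.4 and 3.19 in the LCM dysplasia and SCC tumor samples. Adiponectin (Adipoq), the atrial peptide gene Nppa, Pck1 and Cox8b were 0 in the carcinoma in situ section, at least 692-fold, 1370-fold, 1150-fold and 1100-fold lower than in the dysplasia section, and Car3 was 644 against 0.326 CPM.

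Whether the difference between carcinoma and dysplasia was itself different in LCM and whole lung samples was tested by an interaction term, which called 0 genes in edgeR (smallest adjusted p = 1), with 76 at an unadjusted p under 0.05, and 1 in DESeq2. On simulated counts this edgeR fit recovered 0 of 66 genes changed 8-fold, so its count cannot show that the 2 sources were alike. The genes with the smallest unadjusted p were Tgtp1, Actc1, Serpinf1 and Wisp2, which were lower in the carcinoma in situ section than the LCM difference gave, and Srp54a, Ugt1a1, Btg3 and Wnt16 in the other direction. Tgtp1, an interferon-inducible GTPase with a near-identical neighbour, had 11.3 CPM in the SCC tumor and 0.109 in the carcinoma in situ, against 27.5, 34.9 and 15.1 CPM in dysplasia. Of 11 skeletal muscle genes 7 were 2-fold apart in opposite directions, beside 0.422% of all genes. Without LCM dysplasia sample 2, 7 of the 11 were instead 2-fold lower in both sources, so the count rested on that sample. Myh1, a fast myosin, had 31.6 CPM in the SCC tumor and 0.109 in the carcinoma in situ, against 53.4, 0 and 24.3 CPM in dysplasia, so its direction in LCM depended on which dysplasia sample it was compared with.

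The 2 A/J carcinoma samples that failed quality control, a carcinoma in situ LCM sample with 843744 counts and an SCC whole lung sample with 262890, were set aside and used as a description. Of the 957 genes among the 976 higher ones that had at least 10 counts there or on average in LCM dysplasia, 58.8% were higher than LCM dysplasia in the carcinoma in situ LCM sample, beside 42.4% of all genes, and of 1817 lower genes 79.6% were lower, beside 57.6%. In the SCC whole lung sample these shares were 42.8% beside 35% and 71.1% beside 65%. The genes had been chosen by their difference from the same dysplasia samples. Shares above those of all genes follow in part from that choice and are no independent check.

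The 17 SWR/J samples that passed, of a second strain with normal to severe dysplastic histology and no carcinoma, gave a wider background. Of the 976 genes higher in both sources, 319 (32.7%) were above every SWR/J sample in both A/J carcinoma samples, against 720 of all 15630 genes (4.61%), and of the 1837 lower genes 446 (24.3%) were below every SWR/J sample, against 691 (4.42%). The higher and lower genes had been chosen by the values of the same A/J carcinoma samples. Their larger shares therefore follow in part from that choice and are no independent check. Strain and grade cannot be told apart here. Slc6a6, Tchh, Nek7, Entpd3, Socs3, Igfbp3 and Msln were above all 17, and Gbp10, Cyp2e1 and Lrrc17 below all 17, whereas for Fut2 and Csf3 at least 1 SWR/J sample was above the carcinoma in situ section.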

How the data were processed

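Expression was measured by RNA sequencing of A/J mouse lung; the authors trimmed reads with Trimmomatic, aligned them with STAR to mm9 and deposited RSEM expected counts per Ensembl gene (37310 genes, all named from the GENCODE annotation of mm9). Samples with few uniquely aligned reads had been failed by the authors. Here expected counts were rounded to whole numbers, 15630 genes passing the study's filter were kept, and edgeR 4.0.16 (quasi-likelihood, robust, TMM) was fitted in R 4.3.3 to the 8 A/J samples that passed, with grade and source, Benjamini-Hochberg adjustment and a threshold of 0.05. DESeq2 1.42.0 and limma 3.58.1 (voom) were alternatives. Differences within a source were taken as log2 CPM after adding 2 counts (scaled to library size), which understates changes of low genes. Whole lung values had 1 sample a side and no test. Scripts were tested on simulated data. The counts carry no molecular identifiers, so floors of 3 counts cover counting error only.

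Groups came from the labels. Genes were named by rule: 12 per direction by p in the pooled fit (none was called), 6 per direction by size in whole lung, 4 per direction by p in the interaction, and the first 3 members of each of 39 lists; other list members were described for their role after their values were seen, and some genes under these rules are not reported here. The members and lists were chosen with earlier results of these data known. Promoters are from RefSeq (GRCm38.p6), matched by symbol, and are not on the build of the counts.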

Additional observations from a re-analysis of the deposited data

How the results depend on the processing

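The test rested on 2 carcinoma samples, and depth limited only the values under 3 counts in a library. The count of 0 genes for carcinoma against dysplasia was 0 with DESeq2 size factors in edgeR, the edgeR expression filter, the 5 carcinoma and dysplasia samples alone, TIN as a covariate, no source term or the 2 failed carcinoma samples added. It was 95 without a filter, 9 by limma-voom, 488 in the fit of all 25 samples, 2747 by DESeq2 and 1117 at an adjusted p under 0.1, a threshold added after seeing the data. Leaving out 1 sample gave 0 to 17, with 17 without the second normal LCM sample. In LCM samples DESeq2 called 227, and 0 were called under the other alternatives, leaving out 1 sample included (0 to 0). The interaction called 1 gene by DESeq2 (2810453I06Rik) and 1 in the fit of 25 samples (Gm6736). In whole lung, 786 genes passed 8-fold in place of 1761 at 4-fold (90 above, 696 below). The counts 2-fold apart in both sources were 2813 in all and ranged from 2522 without LCM dysplasia sample 1 to 2912 with a prior count of 0.5. Library size alone as the scale moved the median LCM difference over all genes from 0.05 to -0.13 log2 units and gave 783 higher and 2010 lower genes in place of 976 and 1837. Over 154 named genes and 18 settings 2 values were reversed, AW112010 (0.0212 log2) and H2-K1 (0.005 log2), both with the failed samples added, 143 passed the threshold that they missed before, and 100 changed sign with an unadjusted p of at least 0.05 in both fits. The causes were not tested. No paired analysis was possible because the labels share no replicate number between carcinoma and dysplasia samples that names an animal.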

Other observations

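Cholesterol synthesis genes were examined after Hsd17b7 and Cyp51 were seen among the leading genes, so the list was chosen with its values known and carries no test. Of 23 sterol genes tested, 11 were at least 2-fold higher in both sources (6.24% of all genes) and 0 lower, 15 were above all 3 dysplasia samples in both carcinoma samples (22.9% of all genes), and the median log2 fold change was 1.16 (1.35 in LCM and 1.05 in whole lung), beside -0.02 over all genes. The enzyme genes Idi1, Sqle and Lss had log2 fold changes of 2.06, 1.77 and 1.57. Srebf2, whose product drives these genes when sterols are low, had 149.6 and 160.3 CPM against 64.7, 58.3 and 77.3 CPM. Insig1, another target of that factor, had 224 and 132 CPM against 89.03, 210.1 and 130.1 CPM, with LCM dysplasia sample 2 close to the SCC tumor, and Acat2 was lower (-1.19 log2, edgeR adjusted p = 0.226).

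Ribosome biogenesis genes, which act in the nucleolus, were likewise examined after the values were seen. Of 37 tested, 30 were above all dysplasia samples in both carcinoma samples (22.9% of all genes), 12 were 2-fold higher in both sources (6.24% of all genes) and 0 lower, and the median was 0.93. Nucleolin (Ncl) was 648 CPM in the SCC tumor sample and 599 CPM in the carcinoma in situ sample, against 311 and 193 in the LCM dysplasia samples and 268 in the whole lung dysplasia sample, and nucleophosmin (Npm1) had 923 and 682 CPM against 493, 329 and 314 CPM. Gnl3, the nucleostemin gene, had 94.7 and 81.04 CPM against 39.8, 39.3 and 27.9 CPM, and Mybbp1a 151 and 168 CPM against 60.1, 44.2 and 52.6 CPM. Nop10 was an exception (-0.32 log2). The cell cycle genes had a median of -0.33, with 0.29 in LCM and -0.32 in whole lung. Whether the 2 groups of genes differ was not tested.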
